A study of Homo sapiens with 6 samples.

Results

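The baseline transcriptome of T24, an established human urothelial carcinoma cell line grown as adherent cultures, was read from the 3 cultures that received siNC, a non-targeting small interfering RNA. Of the 78932 genes of the count table, 17184 had at least 10 counts in all 3 cultures, which is 21.8%, and these are called expressed below. All 3 cultures were grown in 1640 medium with serum and antibiotics, transfected with KeygenMAX3000 reagent and assigned to 1 batch by their labels, which call them biological replicates of a single line bought from 1 cell bank. The study's methods state that the line was authenticated by short tandem repeat profiling. The series holds 6 libraries in all, and the other libraries, which received siRNA against TRIM28, enter no value here. The libraries were made from poly(A)-selected RNA with a stranded kit. Levels are given in RPKM, the counts of a gene per 1000 bases of its exons and per 1000000 counts of the library, as mean ± SD over the 3 cultures (n = 3), and raw counts are given in the order siNC 1, siNC 2 and siNC 3. With a single group there was no contrast to test, so the values below are a description.

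The urothelium is a layered epithelium in which basal cells, marked by keratins such as KRT5 and KRT14 and by the factor TP63, give rise to intermediate cells and to superficial umbrella cells, which carry uroplakin plaques and KRT20. PPARG, GATA3, FOXA1 and ELF3 are transcription factors of the luminal programme. Bladder carcinomas are commonly described as luminal, basal or mesenchymal by which of these programmes they keep. In epithelial-mesenchymal transition, repressors of the ZEB, SNAI and TWIST families silence E-cadherin (CDH1) and other junction genes while vimentin (VIM) and N-cadherin (CDH2) appear.

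The libraries held 13931551, 13942383 and 12989362 counts. siNC 1 and siNC 2 differed by little more than sampling noise over the expressed genes (chi-square of 1.06 per degree of freedom), and were kept as separate cultures, whereas siNC 3 stood at 4.52 and 4.57 per degree of freedom from siNC 1 and siNC 2. Genes of RNA classes that lack a poly(A) tail were then left out, with several unnamed genes that differed strongly in siNC 3. Over the remaining 17150 genes the values were 1.71 and 1.71. The genes left out were picked after the values had been seen, so part of this fall was fixed by the choice. The common biological coefficient of variation estimated by edgeR was 0.00988 between siNC 1 and siNC 2, 0.0770 between siNC 1 and siNC 3, and 0.0772 between siNC 2 and siNC 3. The edgeR values include the RNA classes that lack a poly(A) tail. An SD of 3 cultures therefore holds both sampling noise and the distance of siNC 3 from the other pair. Whether siNC 1 and siNC 2 are as independent as their labels state was not tested, so n = 3 may overstate the replication. Several classes of RNA that carry no poly(A) tail were much more abundant in siNC 3, while other such classes differed less. Their values close the account. Without siNC 3, 17604 genes had at least 10 counts in both remaining cultures, and 16 of the 19 marker lists used below kept their number of expressed members.

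Among genes that RefSeq lists as protein-coding, 11711 of 19282 were expressed, or 60.7%, and 3150 had no count in any culture. This share is the background for the lists and families of protein-coding genes below. Of the long noncoding RNA genes, 1249 of 5305 were expressed (23.5%), of the pseudogenes 660 of 12017 (5.49%), and of the microRNA genes 39 of 1852 (2.11%). Small nucleolar RNA genes were expressed in 18 of 498 cases (3.61%), and genes with no RefSeq symbol match in 3158 of 37881 (8.34%). The expressed genes took 99.6% of all counts in the mean of the cultures. Their median level was 3.08 RPKM, with a 10th percentile of 0.456 and a 90th percentile of 26.6 RPKM. Mean levels of at least 1 RPKM were found for 13351 genes, of at least 10 RPKM for 3948, of at least 100 RPKM for 447 and of at least 1000 RPKM for 42. The median over all protein-coding genes, silent ones included, was 0.892 RPKM. At the border, 289 genes had a lowest count of exactly 10 and a median level of 0.470 RPKM, and 316 genes had a lowest count of exactly 9 and a median of 0.445 RPKM. NUTM2D, a gene of the NUT family, fell just inside with 12, 13 and 10 counts, and HOXA5, a homeobox factor, just outside with 19, 9 and 24 counts.

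A small set of genes carried much of the RNA. The 10 genes with most counts took 6.93% ± 0.251 of each library, the first 100 took 25.8% ± 0.277 and the first 1000 took 60.1% ± 0.162. The 13 protein genes of the mitochondrial genome, which encode subunits of the respiratory chain and ATP synthase, took 4.15% to 4.16%, and the cytosolic ribosomal protein genes 6.80% to 7.02%. Within the mitochondrial set, the levels ran from 1239 ± 129 RPKM for MT-ND3, a subunit of complex I, to 16461 ± 87.3 RPKM for MT-ATP8, an ATP synthase subunit whose short gene shares bases with MT-ATP6.

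TMSB10, which encodes thymosin beta 10, a small protein that binds actin monomers, had the highest level of the named nuclear genes of at least 300 bases. Its counts were 100899, 101413 and 93165, which correspond to 15710.4, 15778 and 15558 RPKM. The coefficient of variation (SD divided by mean) was 0.00718, so the cultures lay close together. The level of its paralogue TMSB4X was 524 ± 18.5 RPKM, lower in all 3 cultures, with a log2 ratio of TMSB10 to TMSB4X of 4.90 ± 0.0420. Chaperones were prominent among the next genes. HSP90AA1, the inducible HSP90, stood at 2454 ± 102 RPKM with 171027, 169379 and 170228 counts, and HSP90AB1, the constitutive form, at 1883 ± 59.9 RPKM with 77489, 76131 and 75437 counts. CALR, a calcium-binding chaperone of the endoplasmic reticulum, had 1251 ± 36.9 RPKM. PFDN2, a prefoldin subunit that hands unfolded actin and tubulin to their chaperonin, closed the set of 20 at 801 ± 10.8 RPKM.

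Genes of translation and RNA binding made up much of the remainder. The ribosomal proteins RPL23A, RPL5, RPS6 and RPL13A had 2102, 1348, 1177 and 966 RPKM, and the elongation factor subunit EEF1G 968 RPKM. YBX1, a cold-shock domain protein that packages messenger RNA, had 1559.7 ± 40.6 RPKM, and HNRNPA1, a splicing regulator, 948 ± 18.3 RPKM. GAPDH, the glycolytic glyceraldehyde-3-phosphate dehydrogenase, stood at 1243 ± 37.1 RPKM with 41375, 40353 and 39897 counts. NDUFS5, an accessory subunit of complex I, had 954 ± 53.3 RPKM, and was lower in siNC 3 (7500, 7549 and 6357) than in the other cultures. The histone chaperone ANP32B and the acidic nuclear protein PTMA had 879 and 827 RPKM.

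**Figure D1:**
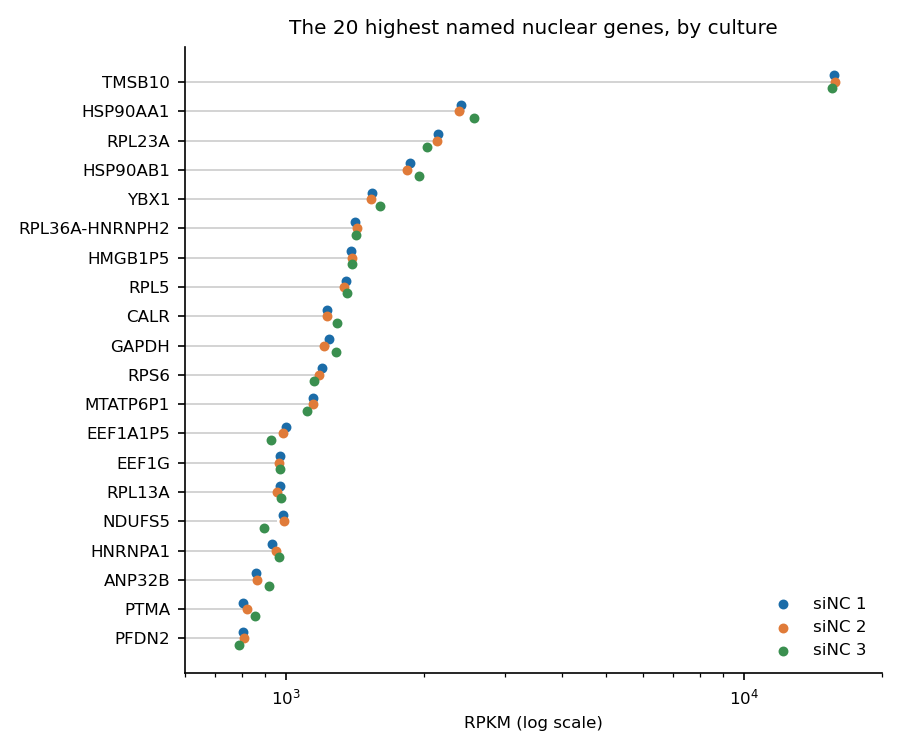
RPKM (log axis) of the 20 named nuclear genes with the highest means, with 1 point per culture in siNC 1, siNC 2 and siNC 3 and a line to the mean. TMSB10 sat near 15682 RPKM, far to the right of HSP90AA1 at 2454 RPKM, and the points of a gene lay close together.

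Several of these values share reads with another gene. RPL36A-HNRNPH2, at rank 6, is a readthrough model over RPL36A, and the pseudogenes HMGB1P5, MTATP6P1 and EEF1A1P5 at ranks 7, 12 and 13 are near copies of HMGB1, MT-ATP6 and EEF1A1, so their levels are uncertain. EEF1A1 itself, the elongation factor that brings tRNA to the ribosome, had 619 ± 11.04 RPKM. MALAT1, a nuclear long noncoding RNA, and TALAM1, annotated on the opposite strand of the same locus, had 8218, 8527 and 9683 counts and 8218, 8526 and 9682 counts, equal to within 1 count in each culture. The kit was stranded, but whether strand was used in counting is not given in the sources used here, so reads of a gene and of an antisense partner are not told apart in these values. The spans of 10412 expressed genes overlapped another expressed gene, 8400 of them on the opposite strand, and 42 overlapping pairs with at least 100 counts in every culture had identical counts, all 42 on the same strand and 0 on opposite strands.

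This bears on the noncoding RNAs with the highest levels, most of which lie across a strongly expressed gene. SNHG9, a small nucleolar RNA host gene, stood first at 344 ± 17.2 RPKM and overlaps RPS2. TUBA1B-AS1 had 205 ± 5.23 RPKM with 14165, 13535 and 12675 counts, against 14888, 14255 and 13576 counts for TUBA1B, an alpha-tubulin gene on the opposite strand. VIM-AS1 had 120.0 ± 0.460 RPKM across the start of VIM, and CERNA3, MYL12-AS1 and LNMICC, at 119, 117 and 103 RPKM, overlap RPS20, MYL12A and FABP5. SAT1-DT, a divergent transcript, reached 120.3 ± 2.60 RPKM, and no gene model that overlaps it, a Y RNA among them, had a count. RRM1-AS1, NUCB1-AS1 and the readthrough ZFP91-CNTF completed the first 10 at 179.8, 179 and 104 RPKM.

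The luminal urothelial programme was close to silent. Of 21 luminal regulators and surface proteins, 4 were expressed, and the median level of the list was 0.0221 RPKM against 0.892 RPKM over all protein-coding genes. The nuclear receptor PPARG had 93, 90 and 105 counts (0.590 ± 0.0737 RPKM), the pioneer factor FOXA1 25, 20 and 21 counts (0.366 ± 0.0408 RPKM) and KLF5, a factor of epithelial progenitors, 36, 42 and 32 counts (0.730 ± 0.0784 RPKM). UPK3BL1, a uroplakin-like gene, had the highest level of the list at 1.38 ± 0.263 RPKM but shares its locus with the readthrough POLR2J2-UPK3BL1. GATA3 counted 10, 10 and 4 and UPK1A 17, 15 and 4, so both missed the minimum in siNC 3 alone, and without siNC 3 the list held 6 expressed genes. ELF3 counted 1, 2 and 1, UPK2 2, 7 and 2 and UPK3A 1, 0 and 0, and UPK1B, KRT20 and VGLL1 had no count in any culture. Among the markers that define umbrella cells, UPK1B and KRT20 were thus absent and UPK2 and UPK3A lay under the minimum in libraries labelled as a urothelial carcinoma line. In bulk RNA, fewer cells with a transcript and less of it per cell cannot be told apart.

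Simple epithelial genes were kept in part. KRT18 and KRT8, the paired keratins of simple epithelia, had 1212, 1131 and 1138 counts (27.8 ± 1.17 RPKM) and 1429, 1434 and 1328 counts (14.9 ± 0.0447 RPKM), although their annotated spans overlap. TJP1, the scaffold protein ZO-1, and OCLN, occludin, had 5.53 ± 0.374 RPKM and 1.67 ± 0.208 RPKM, and KRT7, a urothelial keratin, had 0.704 ± 0.0363 RPKM. In all, 9 of 25 genes of the list were expressed (36%, against 60.7% of protein-coding genes). Several adherens junction and epithelial surface genes lay under the minimum. CDH1 had 2, 0 and 0 counts, EPCAM 5, 5 and 6 counts, KRT19 7, 7 and 0 counts and CLDN7 1, 0 and 1 counts, and RAB25 and CLDN3 had none. ESRP1 and ESRP2, which direct epithelial splicing, had 0, 0 and 2 counts and 0, 1 and 0 counts, and GRHL2, an epithelial grainyhead factor, had 1, 1 and 0 counts.

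The letters CACCTG and CAGGTG, each the reverse complement of the other, are the E-box to which ZEB1 is known to bind, and are shown because ZEB1 was among the highest mesenchymal genes. RefSeq promoter windows (GRCh38.p14, 250 bases before to 50 after the start) were matched for 14 of the 25 genes of this epithelial list, CDH1 not among them, and 7 of the 14 held at least 1 such match on either strand, among them 2 of the 6 expressed genes and 5 of the 8 others. Over all 15394 matched protein-coding promoters the share was 19.9%, with 17.6% for expressed genes and 24.01% for genes under the minimum. A match describes letters and says nothing of binding. Stretches of 30 bases before the start of 2 silent genes (CLDN7 and RAB25) and 2 expressed genes (DSP and OCLN) are printed 5′ to 3′ with the E-box in capitals.
CLDN7 (chr17:7262635-7262664, minus strand): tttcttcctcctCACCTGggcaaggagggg
CLDN7 (chr17:7262596-7262625, minus strand): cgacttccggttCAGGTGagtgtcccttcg
RAB25 (chr1:156061107-156061136, plus strand): catctctccaccCACCTGggccccaggtct
DSP (chr6:7541574-7541603, plus strand): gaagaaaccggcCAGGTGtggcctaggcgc
OCLN (chr5:69492502-69492531, plus strand): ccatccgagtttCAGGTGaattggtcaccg

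DSP, which encodes the desmosomal plaque protein desmoplakin, had 111, 93 and 97 counts and its window held 2 matches, while the window of CLDN7, a tight junction claudin, held 5.

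Most basal and squamous markers were also under the minimum. Of 25 markers 6 were expressed, against 60.7% of protein-coding genes. CD44, a hyaluronan receptor, had 9964, 9817 and 9243 counts (71.1 ± 0.566 RPKM), ITGA6, the laminin-binding alpha 6 integrin, 19.1 ± 0.589 RPKM, LAMB3, a laminin 332 chain, 12.1 ± 0.0436 RPKM, and EGFR 3.33 ± 0.0428 RPKM. KRT15, a keratin of basal cells, had 526, 546 and 493 counts (6.41 ± 0.127 RPKM). By contrast KRT5 had 0, 0 and 1 counts, KRT14 1, 0 and 0 counts, TP63 9, 4 and 6 counts and ITGB4, the partner of ITGA6 in hemidesmosomes, 1, 1 and 1 counts. KRT6A, KRT6B, KRT6C, IVL, SPRR1B and SPRR3, genes of squamous differentiation, had no count in any culture. CD44, ITGA6 and EGFR are not restricted to basal cells.

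Of the mesenchymal list, 21 of 30 genes were expressed, a share not far from the 60.7% of all protein-coding genes, and the median of 1.38 RPKM compares with 0.892 RPKM over all of them. Unlike the luminal and basal lists, it did not lie under this background. VIM, the intermediate filament of mesenchymal cells, had 15259, 15123 and 14228 counts (211 ± 1.19 RPKM). AXL, a receptor tyrosine kinase, had 3952, 4004 and 3611 counts (55.1 ± 0.903 RPKM). CCN1, a matricellular protein, and CALD1, caldesmon, had 51.5 ± 0.780 RPKM and 41.0 ± 1.02 RPKM. Each of these varied little between cultures. Of the repressors, ZEB1 stood far above the others at 5561, 5785 and 5490 counts (47.7 ± 1.38 RPKM), against 1.61 ± 0.0369 RPKM for ZEB2, 2.80 ± 0.157 RPKM for TWIST1 and 0.697 ± 0.235 RPKM for SNAI2. SNAI1 counted 12, 9 and 8 and TWIST2 0, 1 and 0, under the minimum. Matrix genes of fibroblasts were largely silent. COL1A1 had 17, 12 and 9 counts, COL1A2 1, 0 and 1 counts, COL3A1 2, 0 and 3 counts, LOX 2, 4 and 3 counts, THBS1 3, 3 and 4 counts, and PRRX1 none, while FN1, fibronectin, reached only 0.314 ± 0.0320 RPKM. SPARC, a collagen-binding matrix protein, was an exception at 18.01 ± 0.286 RPKM.

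Within each culture, VIM exceeded KRT18 by 2.90, 2.99 and 2.89 on the log2 scale of RPKM, a mean of 2.93 ± 0.0533. CDH2 had 802, 786 and 753 counts (6.68 ± 0.0967 RPKM) where CDH1 had at most 2. Set against a floor of 3 counts per library for CDH1, the CDH2 level was at least 184-fold higher, a log2 ratio of 7.52 ± 0.0465. ZEB1 exceeded ZEB2 by 4.89 ± 0.0751. The order held in all 3 cultures for each of these pairs.

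Markers of other cell types were mostly at or near 0. Of 15 immune genes 2 were expressed, and PTPRC, the pan-leukocyte CD45, had 1, 1 and 4 counts, while CD3D, CD3E, CD4, CD14, CD79A and NKG7 had none. CD68, a lysosomal protein, was the exception at 159 ± 0.725 RPKM, and it overlaps an unnamed gene model with more counts. Of 10 endothelial genes 2 were expressed, TIE1 at 1.26 ± 0.0890 RPKM and ERG at 0.203 ± 0.0712 RPKM, and CDH5, KDR and CLDN5 had no count. Among 12 fibroblast and smooth muscle genes 5 were expressed, led by THY1 at 3.95 ± 0.186 RPKM and ACTA2, smooth muscle actin, at 1.10 ± 0.0572 RPKM, with FAP at 0 and DCN at 0, 1 and 0 counts. Neuroendocrine genes were expressed in 7 of 15 cases. PEG10, a retrotransposon-derived imprinted gene, had 22.2 ± 0.960 RPKM, the enolase ENO2 16.2 ± 0.0631 RPKM, CHGB, a granin of secretory granules, 416, 405 and 391 counts (6.67 ± 0.124 RPKM), and SYP, synaptophysin, 1.21 ± 0.119 RPKM. The neuroendocrine factor NEUROD1 had 1, 1 and 2 counts and INSM1 none.

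**Figure D2:**
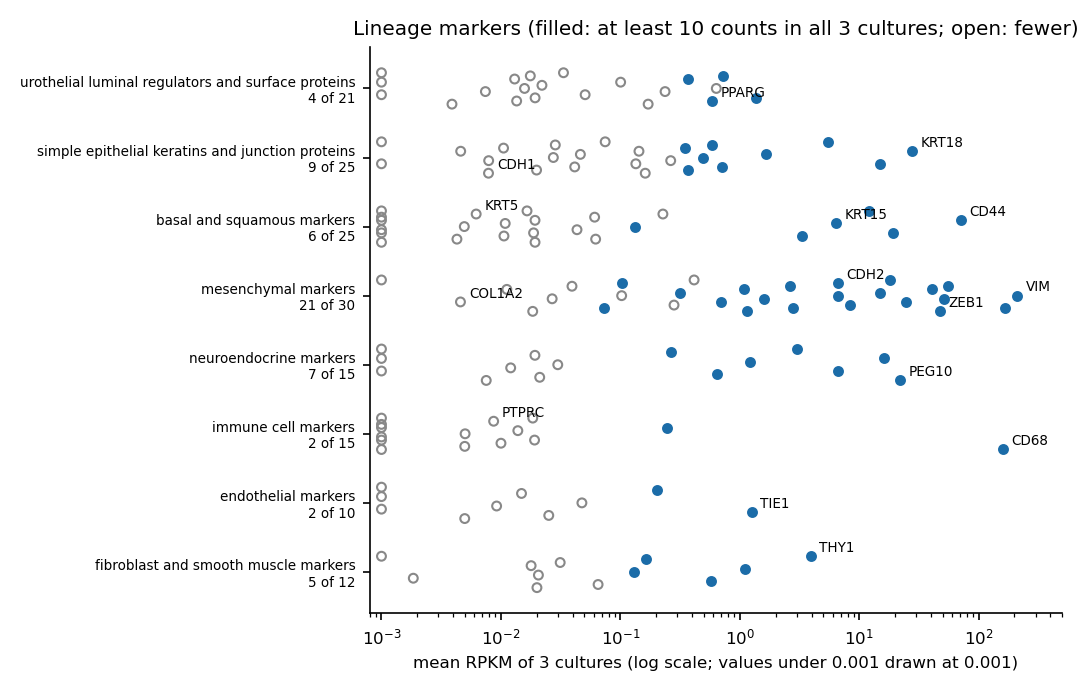
Mean RPKM of 3 cultures (log axis) of each gene in 8 marker lists, with filled points for genes with at least 10 counts in all 3 cultures and open points for the others. Filled points fill the right side in the mesenchymal list (21 of 30), whereas most points of the luminal (4 of 21) and basal (6 of 25) lists are open and lie at the left.

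Growth factor receptors were expressed in 21 of 37 cases (56.8%), near the 60.7% of protein-coding genes. After AXL, the highest were MET, the hepatocyte growth factor receptor, at 2362, 2480 and 2302 counts (24.2 ± 0.641 RPKM), the ephrin receptors EPHA2 and EPHB4 at 17.1 ± 0.436 RPKM and 10.5 ± 0.273 RPKM, and FGFR1 at 1602, 1629 and 1395 counts (6.57 ± 0.291 RPKM). FGFR3, the fibroblast growth factor receptor often mutated in luminal papillary tumours, had 14, 25 and 27 counts (0.335 ± 0.115 RPKM). In the ERBB family the levels were 3.82 ± 0.182 RPKM for ERBB2, 3.33 ± 0.0428 RPKM for EGFR and 0.410 ± 0.0936 RPKM for ERBB3, and ERBB4 had 0, 1 and 0 counts. The means of ERBB2 and EGFR lay close together, with ERBB2 above EGFR in all 3 cultures. MET exceeded EGFR by 2.86 ± 0.0417 on the log2 scale. KIT, FLT1, FLT3, ALK and the NTRK receptors had at most 2 counts in any culture.

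Of 14 surface proteins that are targets of antibody or kinase drugs in bladder cancer, 6 were expressed. Besides ERBB2, EGFR and FGFR3 these were CD276 (B7-H3) at 301, 281 and 256 counts (3.74 ± 0.181 RPKM), CD274 (PD-L1) at 113, 160 and 125 counts (2.37 ± 0.410 RPKM), and F3, tissue factor, at 1.62 ± 0.264 RPKM. NECTIN4, the target of enfortumab vedotin, counted 1, 1 and 1. PDCD1LG2, the other ligand of PD-1, counted 4, 7 and 4.

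Among 37 genes recurrently altered in bladder cancer, 31 were expressed, with a median of 3.15 RPKM. CCND1, the cyclin that drives CDK4 and CDK6, was the highest at 3591, 3639 and 3332 counts (54.3 ± 0.486 RPKM), followed by NFE2L2, the oxidative stress factor NRF2, at 24.4 ± 0.843 RPKM and MYC at 18.04 ± 0.856 RPKM. HRAS had 17.1 ± 0.749 RPKM and NRAS 11.4 ± 0.0377 RPKM, in that order in every culture. RB1 had 737, 691 and 688 counts (8.04 ± 0.302 RPKM), ARID1A 5.65 ± 0.0699 RPKM and PIK3CA 1.94 ± 0.0931 RPKM. KDM6A, a histone demethylase, was low at 0.183 ± 0.0212 RPKM. CDH1, ELF3, FOXQ1, CDKN2A and CDKN2B were among the genes under the minimum.

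Of the cell cycle inhibitor genes on the short arm of chromosome 9, CDKN2A counted 1, 1 and 0 and CDKN2B counted 0, 0 and 1. Their neighbours were at or near 0 too. The 10 consecutive protein-coding genes from IFNA6 to DMRTA1, between positions 21350253 and 22455740 of chromosome 9 (GRCh38), had 4, 4 and 2 counts in total. MTAP, a broadly expressed enzyme of the methionine salvage pathway that lies beside CDKN2A, counted 1, 3 and 1, while KLHL9 just outside counted 464, 479 and 427. Further out, FOCAD had 348, 347 and 362 counts and MLLT3 had 942, 938 and 789 counts, both well over the minimum. Of the genes of any type within the span, 22 of 37 had no count, against 39030 of all 78932 genes. The one gene over the minimum, which 21.8% of all genes reached, was the long noncoding RNA MIR31HG, with 37, 29 and 21 counts. It lies inside the stretch, between positions 21364605 and 21591905. Between FOCAD and KLHL9 the interferon genes also had no count, and HACD4, which is not an interferon gene, counted 2, 3 and 2. Interferon alpha genes are silent in most unstimulated cells. The stretch was examined after the values of CDKN2A had been seen, DNA copy number was not measured, and neither the reason for the missing counts nor the identity of the line was tested.

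**Figure D3:**
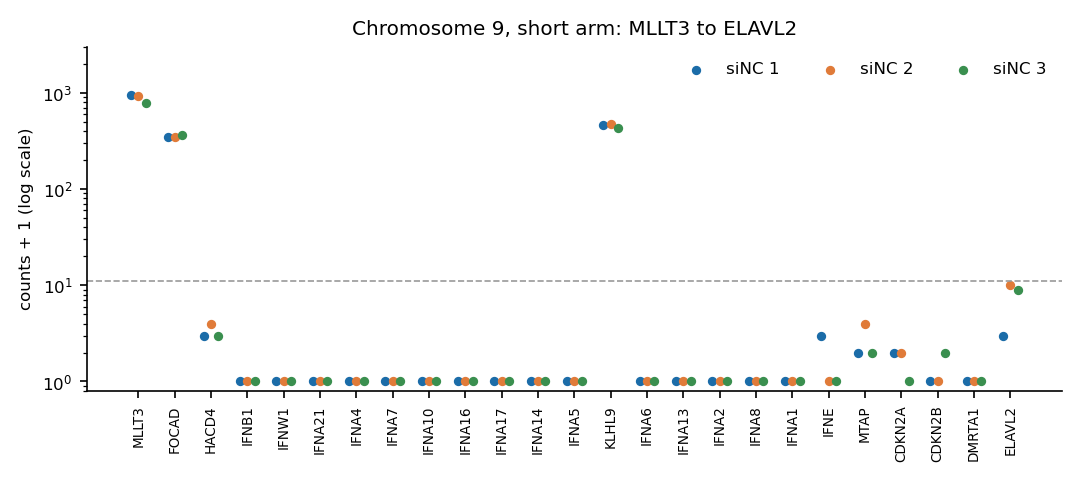
Counts plus 1 (log axis) of consecutive protein-coding genes in chromosome order on the short arm of chromosome 9, 1 point per culture, with a dashed line at the minimum of 10 counts. HACD4, MTAP, CDKN2A, CDKN2B, DMRTA1 and the interferon genes lie at the bottom. MLLT3, FOCAD and KLHL9 had more than 100 counts in each culture, and ELAVL2 lay under the minimum.

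Glycolytic genes were expressed in 24 of 33 cases. Beside GAPDH, ENO1 stood at 472 ± 12.7 RPKM, TPI1 at 262 ± 0.480 RPKM, PKM at 159 ± 2.80 RPKM and ALDOA at 81.0 ± 0.704 RPKM. HK2, the inducible hexokinase, had 2248, 2164 and 2004 counts and exceeded HK1 by 3.79 ± 0.0925 on the log2 scale. For phosphofructokinase the platelet form PFKP exceeded the liver form PFKL by 1.67 ± 0.0316, and for glucose import SLC2A1 (GLUT1) exceeded SLC2A3 (GLUT3) by 4.89 ± 0.112. Of the lactate dehydrogenase chains, LDHB, the heart form, stood at 355 ± 5.89 RPKM and LDHA, the muscle form, at 176 ± 2.92 RPKM, a log2 ratio of 1.01 ± 0.0479, although LDHB overlaps a second gene model with similar counts. The raw counts of the pair were nearly equal, 14678, 14579 and 14019 for LDHB and 14854, 14963 and 13507 for LDHA, so this order rests on the annotated lengths. The monocarboxylate carrier SLC16A1 (MCT1) exceeded SLC16A3 (MCT4) by 3.35 ± 0.113. LDHC, the testis form, and SLC2A2, a glucose transporter of liver and pancreas, had no count.

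Of 28 genes of fatty acid synthesis, storage and use, 23 were expressed. FABP5, the epidermal fatty acid binding protein, led at 4409, 4534 and 4069 counts (167 ± 3.24 RPKM), and SCD, the desaturase that makes oleate, had 68.9 ± 1.19 RPKM. ACLY, which makes cytosolic acetyl-CoA, had 29.7 ± 0.652 RPKM, and FASN, fatty acid synthase, 8.37 ± 0.351 RPKM. Of the lipid droplet coat proteins PLIN3 had 38.9 ± 0.770 RPKM and PLIN2 2.98 ± 0.0205 RPKM, while the adipocyte genes FABP4 and CD36, both known PPARG targets, had no count in any culture. CPT1A, the gate of mitochondrial fatty acid import, had 10.3 ± 0.529 RPKM.

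All 30 proliferation genes were expressed, with a median of 25.9 RPKM. STMN1, a microtubule-destabilising protein, had 294 ± 8.68 RPKM, the topoisomerase TOP2A 124 ± 2.82 RPKM, TYMS, thymidylate synthase, 69.4 ± 1.19 RPKM, the proliferation marker MKI67 12101, 12204 and 11855 counts (68.9 ± 1.85 RPKM), and the replicative helicase subunit MCM3 62.5 ± 1.58 RPKM. CDK4 exceeded CDK6 by 3.97 ± 0.0470 and CCND1 exceeded CCND2 by 3.84 ± 0.0733 on the log2 scale. Cytoskeletal genes were expressed in 31 of 32 cases, with a median of 114 RPKM. Beside the thymosins stood ACTG1 and ACTB, the cytoplasmic actins, at 555 ± 26.6 RPKM and 333 ± 3.41 RPKM, and TPM2, a tropomyosin, at 420.4 ± 2.96 RPKM. MYH9, non-muscle myosin II heavy chain A, exceeded MYH10 by 3.94 ± 0.00227. The single silent member was MYL9, a smooth muscle light chain, with 0, 2 and 1 counts.

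Stress and signalling programmes were present at different heights. Of 23 immediate early genes 20 were expressed, led by JUN at 4966, 5145 and 4729 counts (100.2 ± 1.75 RPKM) and FOSL1 at 2540, 2521 and 2450 counts (97.5 ± 2.19 RPKM), which pair in the AP-1 factor. FOS itself had 0.854 ± 0.0873 RPKM, so that FOSL1 exceeded FOS by 6.84 ± 0.178. DUSP1, a phosphatase of MAP kinases, had 32.1 ± 3.80 RPKM and was lower in siNC 3 (936, 984 and 727). ATF4, the factor of the integrated stress response, had 69.8 ± 2.99 RPKM, and 18 of 19 genes of its list were expressed, DDIT4 at 32.96 ± 0.914 RPKM and DDIT3 at 22.8 ± 1.96 RPKM. Hypoxia targets were expressed in 15 of 17 cases, with BNIP3, a mitophagy receptor, at 64.7 ± 1.89 RPKM, CA12, a surface carbonic anhydrase, at 51.7 ± 1.31 RPKM and CA9 at 1.48 ± 0.184 RPKM. Interferon-stimulated genes lay near the background, with 14 of 24 expressed (58.3%, against 60.7% of protein-coding genes) and a median of 0.729 RPKM against 0.892 RPKM. IFI44 led at 10.5 ± 0.523 RPKM, ISG15, a ubiquitin-like protein, had 6.73 ± 0.943 RPKM, and CXCL10 had no count.

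Gene families ranged from full to empty. The SMAD factors (8 of 8) and TEAD factors (4 of 4), the nuclear ends of TGF-beta and Hippo signalling, were expressed throughout, led by SMAD3 at 18.1 ± 0.172 RPKM and TEAD4 at 5.61 ± 0.199 RPKM. Proteasome subunits were expressed in 37 of 39 cases, cytosolic ribosomal proteins in 82 of 87, kinesins in 33 of 39 and ZNF genes in 414 of 509, all above the 60.7% of protein-coding genes. KIF5B, the conventional kinesin heavy chain, led its family at 136 ± 4.01 RPKM, ahead of the mitotic kinesins KIF20A and KIF2C at 64.2 and 50.02 RPKM. PSMA7, PSMD2 and PSMD7 led the proteasome at 190.4, 160.1 and 94.6 RPKM. In the TRIM family 41 of 73 genes were expressed. TRIM28, the corepressor that the study silenced in its other cultures, had the highest RPKM at 23.9 ± 0.773, with 1419, 1393 and 1382 counts. TRIM44 had more counts (2854, 3009 and 2768) but 16.1 ± 0.435 RPKM, so their order rests on the annotated lengths. Clustered protocadherins were expressed in 41 of 53 cases, but the alpha and the gamma members share 3′ exons within their clusters, so reads cannot be assigned to 1 member. PCDHA4, PCDHA5, PCDHA6 and PCDHA7 had identical counts (28, 31 and 33), and outside these clusters only the 4 beta genes PCDHB2, PCDHB3, PCDHB5 and PCDHB6 were expressed.

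The 4 HOX clusters, which encode positional homeobox factors, differed. In HOXB 8 of 10 genes were expressed, HOXB7 at 674, 711 and 715 counts (33.9 ± 2.21 RPKM), HOXB4 at 13.4 ± 1.10 RPKM and HOXB8 at 12.6 ± 0.677 RPKM. HOXB1 had no count and HOXB13 2, 0 and 0 counts, at the ends of the cluster. HOXA, HOXC and HOXD held 3 of 11, 4 of 9 and 5 of 9 expressed genes, and none of their genes reached 3 RPKM, the highest being HOXD4 at 2.71 ± 0.453 RPKM. HOXA9 had 1, 0 and 0 counts and HOXA10 had 0, 1 and 0 counts. Other factors included SOX12 at 26.4 ± 1.09 RPKM and SOX9 at 11.67 ± 0.281 RPKM, among 6 of 19 SOX genes, the proliferation factor FOXM1 at 21.2 ± 0.359 RPKM and FOXD1 at 14.1 ± 0.855 RPKM, among 22 of 45 forkhead genes, and KLF6 at 14.6 ± 0.567 RPKM, among 13 of 18 KLF genes. GATA2 led the GATA family at 240, 214 and 281 counts (3.68 ± 0.656 RPKM), above GATA6 and GATA4 at 0.715 and 0.359 RPKM. PAX genes were expressed in 2 of 9 cases and only at low level, PAX6 at 0.821 ± 0.0802 RPKM.

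SNHG host genes of small nucleolar RNAs were expressed in 25 of 29 cases (86.2%, against 23.5% of long noncoding RNA genes). Of 55 keratins 7 were expressed and 29 had no count at all. After KRT18, KRT8 and KRT15 came KRT10 at 5.69 ± 0.290 RPKM and KRT82, a hair keratin, at 162, 148 and 169 counts (4.44 ± 0.455 RPKM). The keratin-associated proteins of hair were expressed in 1 of 94 cases, and the claudins of tight junctions in 2 of 24 (CLDN12 at 2.09 ± 0.136 RPKM and CLDN1 at 0.351 ± 0.0331 RPKM). Integrins were expressed in 13 of 26 cases, with ITGB1, the common beta 1 chain, at 31268, 31532 and 29313 counts (129 ± 0.506 RPKM), ITGA3 at 49.0 ± 0.276 RPKM and ITGB5 at 15.7 ± 0.184 RPKM. Collagen chains were expressed in 17 of 44 cases, led by COL6A2 at 13.6 ± 0.482 RPKM and COL23A1, a transmembrane collagen, at 10.2 ± 0.234 RPKM. MMP14, the membrane-anchored metalloproteinase that activates MMP2, had 7094, 6870 and 6633 counts (109 ± 2.15 RPKM), and held 85.4% of the summed level of its family, of which 10 of 23 were expressed. MMP2 had 6.67 ± 0.339 RPKM and MMP9 2.34 ± 0.137 RPKM. S100 calcium-binding proteins were expressed in 6 of 19 cases, S100A11 at 226 ± 6.45 RPKM, S100A16 at 158 ± 6.95 RPKM and S100A10 at 136 ± 5.75 RPKM. The metallothionein MT2A, which binds zinc and copper, had 9028, 9471 and 9143 counts (741 ± 30.6 RPKM) and held 99.8% of the summed level of its family. MT1X had 1.09 ± 0.191 RPKM, and the other MT1 genes had at most 2 counts in any culture.

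Less than the 60.7% background was also seen for secreted ligands, and in several of these families 1 gene led. WNT5B had 2022, 1979 and 1931 counts (34.3 ± 0.793 RPKM), which was 84.6% of the summed WNT level, and 7 of 19 WNT genes were expressed beside 7 of 10 frizzled receptors. BMP6 had 974, 880 and 839 counts (17.4 ± 0.945 RPKM) among 5 of 11 BMP genes, and FGF1 8.32 ± 0.509 RPKM among 6 of 22 FGF genes. Of the CXC chemokines 6 of 14 were expressed, CXCL1 at 8.42 ± 0.862 RPKM and CXCL8 at 1.35 ± 0.281 RPKM, and of the CC chemokines 1 of 26, CCL2 at 206, 248 and 211 counts (8.41 ± 0.776 RPKM). The chemokine receptors held 2 of 16 expressed genes, and both, CCR10 and CXCR5, overlap a more highly counted gene. Potassium channel subunits were expressed in 20 of 95 cases, KCNMA1, the large-conductance channel, at 6.41 ± 0.101 RPKM, and SCN8A was the main sodium channel at 1.29 ± 0.0805 RPKM.

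Among MAGE genes, several of which are normally restricted to testis, 12 of 36 were expressed. MAGEA4 had 1662, 1676 and 1401 counts (34.4 ± 2.04 RPKM), MAGEA10 31.8 ± 1.20 RPKM, MAGEC2 21.8 ± 0.687 RPKM, MAGEA6 19.3 ± 0.554 RPKM and MAGEA3 13.0 ± 0.705 RPKM. MAGEA1 had 3, 0 and 0 counts and MAGEA12 2, 4 and 3 counts, and members of the MAGEA3 and MAGEA6 group are near copies, so their split is uncertain. The ubiquitous MAGEF1 had 27.5 ± 0.215 RPKM.

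Among enzymes of foreign compound metabolism, the cytochrome P450 and UDP-glucuronosyltransferase families were sparse. Cytochrome P450 enzymes were expressed in 7 of 55 cases, and CYP51A1, which belongs to sterol synthesis, held 81.0% of their summed level at 27.4 ± 1.45 RPKM. None of the 21 UDP-glucuronosyltransferases was expressed, against 60.7% of protein-coding genes, and UGT3A2 was highest at 1, 3 and 2 counts. Glutathione S-transferases were expressed in 8 of 16 cases (50%), GSTP1 at 41.8 ± 1.63 RPKM and GSTO1 at 22.1 ± 0.143 RPKM. Aldo-keto reductases were expressed in 6 of 13 cases (46.2%), AKR1B1 at 17.9 ± 0.512 RPKM. Aldehyde dehydrogenases lay near the 60.7% background, with 11 of 18 expressed (61.1%) and ALDH7A1 at 9.73 ± 0.181 RPKM. Sensory receptors were silent, with 1 of 393 olfactory and 1 of 27 taste receptors expressed. OR51B5 (14, 17 and 21) and TAS2R14 (34, 49 and 30) were these exceptions, and both overlap a more highly counted gene. All 13 interferon alpha genes had no count. Of 2215 LINC noncoding RNAs 183 were expressed (8.26%, against 23.5% of long noncoding RNA genes), LINC02067, LINC02951 and LINC00460 at 62.8, 56.2 and 18.97 RPKM.

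**Figure D4:**
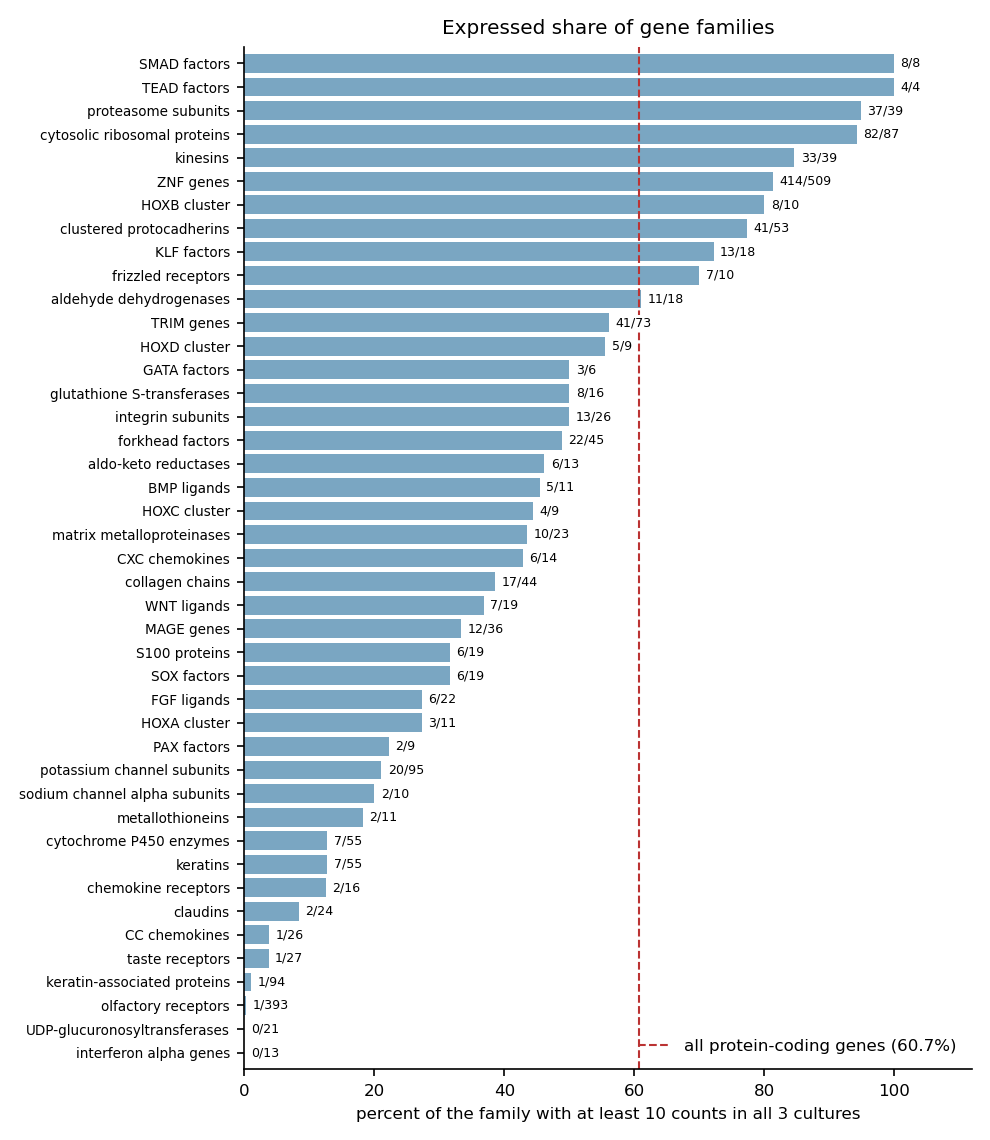
Percent of each gene family with at least 10 counts in all 3 cultures, with the number of genes beside each bar and a dashed line at the 60.7% of all protein-coding genes. Bars reach 100% for SMAD and TEAD factors and shrink to 0 for UDP-glucuronosyltransferases and interferon alpha genes.

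The cultures were close to each other for nearly all genes. Among 10439 genes with a mean of at least 100 counts, 9338 had a coefficient of variation of RPKM of 0.1 or less, 1077 lay between 0.1 and 0.3, and 24 lay above 0.3. In all 24 the value of siNC 3 lay beyond both others, above them for 17 and below them for 7. Only 3 of the 24 were protein-coding, of 8691 protein-coding genes at this depth. Most named genes of the higher group encode RNAs that lack a poly(A) tail. RN7SL1 and RN7SL2, the 7SL RNA of the signal recognition particle, had 36, 35 and 2066 counts and 44, 44 and 2570 counts, and RN7SL3 and the pseudogene RN7SL5P had 12, 13 and 485 counts and 12, 17 and 416 counts. RN7SK, which holds back transcription elongation, had 150, 178 and 3923 counts, with the model named 7SK at the same counts. RPPH1, the RNA of RNase P, had 10, 7 and 413 counts, SNORD3C, a U3 small nucleolar RNA, 61, 67 and 3424 counts, and RNVU1-7, a variant U1 RNA, 1, 5 and 475 counts. The mitochondrial ribosomal RNA MT-RNR1 had 1490, 1560 and 5640 counts.

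By class, the CPM (counts per 1000000 counts of the library) of the 7SL RNA genes was 59.7 times the mean of the other cultures in siNC 3, of RNase P and RNase MRP RNA 54.1 times, of U1 and U2 spliceosomal RNA 17.96 times and of U3 RNA 7.29 times. Mitochondrial ribosomal RNA stood at 1.46 times and mitochondrial tRNA at 1.06 times. Small nucleolar RNAs processed from introns differed less, 1.17 times for the C/D box class without U3 and 1.69 times for the H/ACA box class, and the replication histone genes stood at 1.29 times. These classes were chosen after the values had been seen. Unnamed genes stood out in the opposite direction. ENSG00000281383 had 11301, 12474 and 436 counts, ENSG00000281181 had 1358, 1511 and 6 counts and ENSG00000310376 had 6515, 6890 and 11 counts, each lowest in siNC 3. The 3 protein-coding genes were WDR74, a ribosome assembly factor whose span holds RNU2-2P, at 351, 304 and 567 counts, UMAD1 at 210, 202 and 99 counts and ZMYND19 at 353, 386 and 182 counts. None of the 24 belongs to a marker list of another cell type, and whether RNA selection or library handling of siNC 3 had a part was not tested.

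**Figure D5:**
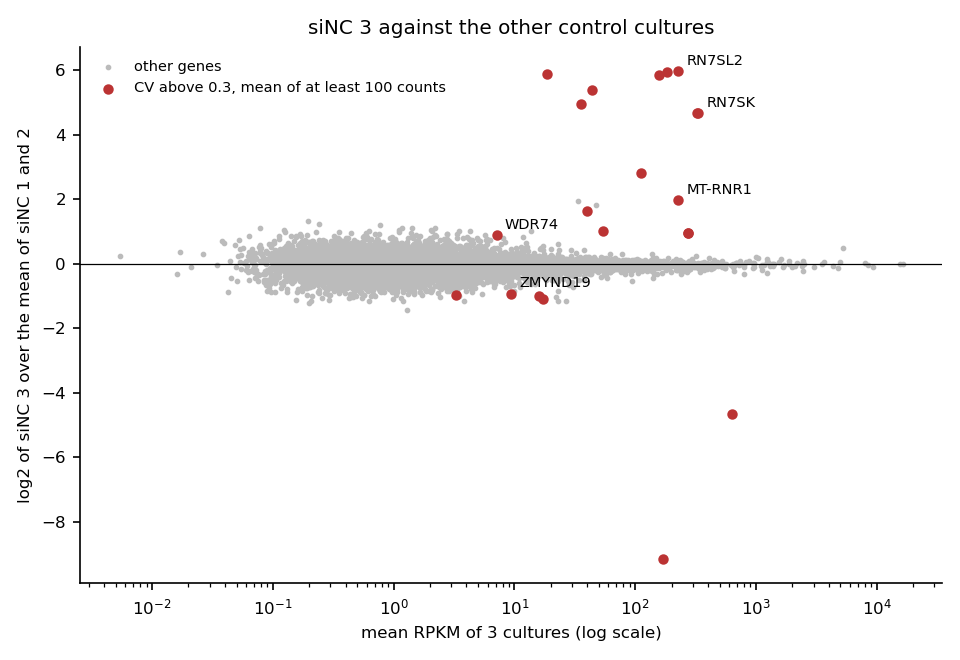
Log2 of the RPKM in siNC 3 over the mean of siNC 1 and siNC 2 against mean RPKM (log axis) for the 17184 expressed genes, with the 21 of them that had a coefficient of variation above 0.3 and a mean of at least 100 counts in red. Grey points narrow towards 0 as levels rise, while RN7SL2 and RN7SK stand far above and 2 unnamed genes far below.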

How the data were processed

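Poly(A)-selected RNA of T24 cultures was sequenced and, per the submitters' processing notes, handled with fastp 0.23.1, STAR 2.7.6a and featureCounts on GRCh38. The authors deposited raw counts per gene for all 6 libraries. The strand setting of featureCounts and its version are not given in the sources used here. Only the 3 siNC columns were read, and the 3 siTRIM28 columns and a deposited table of the authors' own differential expression results (fold changes and p-values) were not used. RPKM was computed from the counts, the deposited gene lengths and the column totals. Gene types came from RefSeq, matched by symbol (41051 genes), and families were collected by symbol pattern without RefSeq pseudogenes.

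The members and lists were chosen with earlier results of these data known. Genes were named by rule: the 20 named nuclear genes of at least 300 bases and the 10 noncoding RNAs with the highest mean RPKM, the highest members of each list and family with the list members the account turns on, the 10 genes with the highest coefficient of variation at a mean of at least 100 counts, and genes at the count minimum. Others were named after their values were seen. Library distances and scalings used edgeR 4.0.16 and DESeq2 1.42.0 in R 4.3.3, and the other values Python 3.11.15. Some genes are not reported here. The scripts were checked on simulated data. Alternatives covered the count minimum, scaling, unit and each culture left out. Means of 3 cultures limit the precision, and a count near 10 has a large counting error.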

Additional observations from a re-analysis of the deposited data

How the results depend on the processing

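Of 57 values under other settings, 49 stayed close to the value reported, 8 moved and 0 reversed, where close means within 1.5 times for a number of genes and within 1 SD of the cultures for a share or a ratio. The number of expressed genes ranged from 15098 with a minimum of 20 counts to 19340 with a minimum of 5, and from 17420 to 17604 with 1 culture left out. With 1 culture left out, the luminal list held 4 to 6 genes, the basal list 6 and the mesenchymal list 21 to 22. The share of counts in the first 100 genes was 23.5% with mitochondrially encoded genes left out, 45.6% as a share of RPKM, and 25.7% to 25.9% with 1 culture left out. The log2 ratio of VIM to KRT18 was 3.68 on counts and 2.90 to 2.94 with 1 culture left out. The log2 ratio of CDH2 to CDH1 was 2.93 with 1 RPKM added to each value, 8.02 on counts, 8.01 with siNC 1 and siNC 2 summed, where the floor of 3 counts weighs less, and 7.50 to 7.55 with 1 culture left out.

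The number of genes with a coefficient of variation above 0.3 was 24 with TMM and with DESeq2 size factors, 41 with a mean of at least 50 counts, and 4 to 35 with 1 culture left out. The lowest of these, 4, was found without siNC 3. In a check added after seeing the data, leaving out siNC 3 changed 3 of the 19 lists, the luminal list to 6 genes, the mesenchymal list to 22 and the interferon-stimulated list to 15.

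No paired analysis was possible because a single group was described. With no contrast there was no test, levels of genes near 10 counts are imprecise, and reads shared by overlapping or near-identical genes limit the levels of those genes. In groups of 3 cultures no single value was tested as standing apart.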

Other observations

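Outside the lists, several genes of invasion were high. PLAU, the urokinase protease, and its receptor PLAUR had 98.1 ± 1.92 RPKM and 79.4 ± 4.55 RPKM, and ANXA2, an annexin that binds plasminogen, had 22000, 21994 and 20255 counts (136 ± 0.949 RPKM). CAV1, the caveolar coat protein, had 20.2 ± 0.670 RPKM, LGALS1, a galectin of mesenchymal cells, 102 ± 5.95 RPKM, and the tetraspanin CD63 99.9 ± 2.39 RPKM. The ferritin chains FTH1 and FTL had 169 ± 2.77 RPKM and 23.6 ± 0.584 RPKM. UCA1, a long noncoding RNA first described in bladder carcinoma, had 1, 5 and 0 counts, and the imprinted H19 had 15, 12 and 7 counts. These genes were named after their values were seen.

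Silent protein-coding genes lay together. Consecutive protein-coding genes with at most 3 counts in every culture formed 54 runs of 10 or more. Among the longest were 47 genes from FLG2 to S100A7 on chromosome 1, in the epidermal differentiation complex, 35 genes from CLDN17 to KRTAP19-8 on chromosome 21 and 30 genes from KRTAP2-4 to KRT38 on chromosome 17, in the keratin loci of hair and skin. Others covered olfactory receptor clusters, such as the 64 genes from OR4B1 to APLNR on chromosome 11. The stretch from IFNA6 to DMRTA1 on chromosome 9, with 10 genes, was 1 of the 54.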
